A study of Mus musculus with 11 samples.

Results

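OKMS, a polycistronic cassette that encodes Oct4 (Pou5f1), Klf4, c-Myc (Myc) and Sox2 in a single transcript, was set against STEMCCA, EB-C5 and WTSI, which like OKMS carry the short form of Klf4. The short form lacks a stretch of residues at the N terminus that OK+9MS and Klf4L carry. That all 4 carry it is known from the study and is not stated in the labels for STEMCCA, EB-C5 and WTSI. OKMS was measured on 1 array and each of the others on 1 array, 4 of the 11 arrays of the series. The comparators are 3 different constructs, so their spread is a spread between constructs and not between repeated cultures. A gene is called set apart here when OKMS lay at least 1 on the log2 scale (2-fold) from the mean of the 3 and also above or below all 3 of them, which held for 224 of 19938 genes (1.12%). This is a description by size and range: with 1 array against 3, an exact permutation test cannot give a two-sided p below 0.25.

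The cells of all 4 cassettes were male mouse embryonic fibroblasts (MEFs) taken at 13.5 days post coitum, F1 hybrids of a ROSA-rtTA homozygous C57Bl6 backcross mother and a C57Bl6/129SV father homozygous for a Nanog-GFP BAC transgene. The genotype label gives both rtTA, the doxycycline-dependent transactivator, and the GFP reporter of Nanog. The cassettes were inserted by piggyBac transposase from the PB-TAC transposon, in which doxycycline drives the cassette together with the red fluorescent protein mCherry. Cells were kept in embryonic stem cell medium with 1 ug/mL doxycycline, and the mCherry-positive cells, a mixed population and not a clone, were sorted on day 6. The same held for 4 further cassettes (OSKM, OK+9MS, MKOS and OKN-HAMS) and for Klf4 alone in its short and long forms (Klf4S and Klf4L), while the lacZ cells were taken on day 2 without the sort. These 7 arrays did not enter the rule by which genes were set apart. They serve to place the values, and they enter the wider limma fits where this is stated. As known from the study, the 4 further cassettes do not carry the short form of Klf4. Placing OKMS beside them therefore also sets Klf4 forms against each other, along with other features of the cassettes.

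Reprogramming replaces the fibroblast programme stepwise. Fibroblasts first lose mesenchymal genes and take up cell contacts and keratins of an epithelium, a change in which Klf4 is known to take part by activating epithelial genes such as Cdh1. Genes of the pluripotent state, among them Nanog, Utf1 and Nr0b1, come on later and in few cells. The 8 cassettes carry the same core factors but differ in features that include their order, the linkers between them and the Klf4 form.

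The label of the cells was borne out by fibroblast markers: all 10 read above 6 in OKMS, 6 being the level under which a reading cannot be told from background here. Their mean level was 10.76 in OKMS, against 10.97 to 11.71 in the 3 comparators, and 3 of the 10 were set apart and lower. The 5 epithelial markers averaged 9.35 in OKMS and 7.73 to 8.40 in the comparators, with 3 set apart and higher. Of 6 embryonic stem cell markers, Nanog and Utf1 were set apart and higher, whereas Zfp42, Dppa3 and Dppa5a read under 6 in OKMS, so the population did not carry the full marker set of embryonic stem cells. Blood, endothelial, muscle, cartilage, fat and neuronal markers had 0 members set apart. The mean of 6 macrophage and blood markers was 6.22 in OKMS and 6.23 to 6.38 in the comparators, and the defining marker Ptprc read 5.64. In these bulk samples, more cells of a type and more RNA per cell cannot be told apart, and the part that the mix of cells plays in the differences below was not tested.

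Of the 224 genes, 162 were higher in OKMS (0.813% of all genes tested) and 62 were lower (0.311%). Without STEMCCA the counts were 199 and 101, without EB-C5 182 and 83, and without WTSI 152 and 106, so the lower count rose each time. These counts rest on fewer comparators, so the choice of comparator cannot be told apart from their smaller number. Nearest to the limit, Cbx7 (1.002) and Amot (-1.0) lay just inside and Smtnl2 (0.981) and Cd55 (-0.998) just outside. Each of the 4 cassettes was set against its other 3 in the same way to show how far any of them stands apart. STEMCCA had 377 such genes (1.89%), WTSI 152 (0.762%) and EB-C5 137 (0.687%), so OKMS came second to STEMCCA in the number of genes set apart. STEMCCA had 246 genes higher (1.23%) and 131 lower (0.657%), WTSI 66 higher (0.331%) and 86 lower (0.431%), and EB-C5 59 higher (0.296%) and 78 lower (0.391%). Higher genes outnumbered lower ones in OKMS and STEMCCA, and lower genes outnumbered higher ones in WTSI and EB-C5. Between single arrays, 355 genes differed 2-fold between OKMS and EB-C5, 401 between OKMS and WTSI and 580 between OKMS and STEMCCA. STEMCCA also lay far from the other comparators, with 657 genes against EB-C5 and 561 against WTSI, and the closest pair was EB-C5 and WTSI with 183.

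limma, fitted on the same 4 arrays with Benjamini-Hochberg adjustment over all 19938 genes, called 0 genes (0%), with 1176 at an unadjusted p under 0.05 and a smallest adjusted p of 0.642. That fit has 2 residual degrees of freedom and assumes that OKMS varies like the 3 comparators. With all 11 arrays in the fit, limma called 4 genes, all higher in OKMS (0.0201% of genes): Slc38a5 and F830045P16Rik (adjusted p 0.0219 each) and Krt8 and Enox2 (adjusted p 0.0234 each). F830045P16Rik and Enox2 lie outside the rule by which genes were named and are given because the count is small. With an intensity trend added to that fit it called 11 (0.0552%), and with the 8 cassettes alone it called 0. The fit on 11 arrays takes part of its spread from the pair Klf4S and Klf4L, which differed 2-fold in 0 genes. The closest pair of comparators, EB-C5 and WTSI, differed in 183. That part of the spread is not one between cassettes. The values below are therefore levels and sizes of difference, beside the SD of the 3 comparators.

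**Figure D1:**
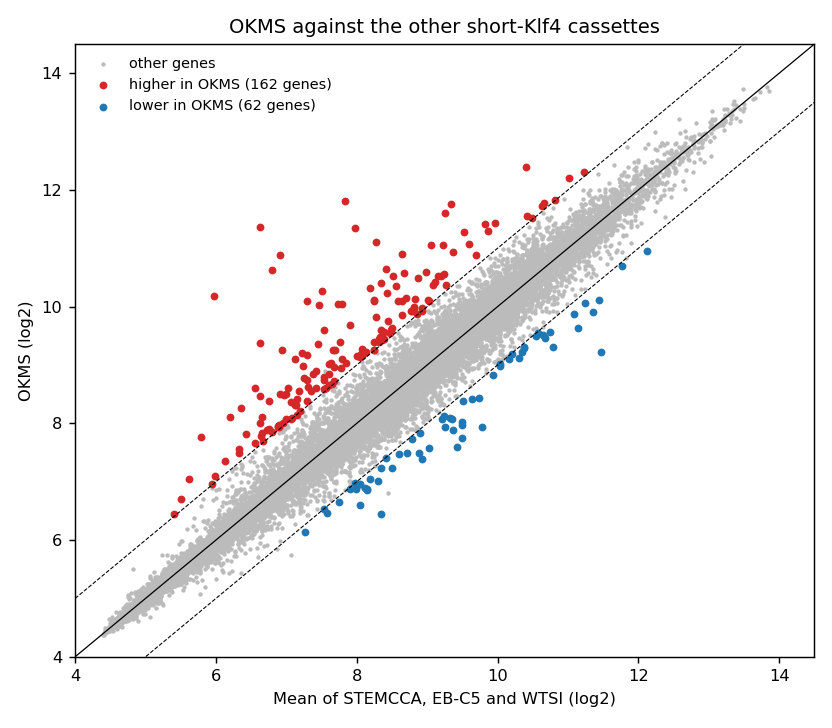
Expression of 19938 genes in OKMS (y axis, log2) against the mean of STEMCCA, EB-C5 and WTSI (x axis, log2), 1 point per gene. The solid line marks equal levels and the dashed lines 2-fold differences; the 162 red genes are higher and the 62 blue genes lower in OKMS, and the red genes reach farther from the line than the blue ones.

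The genes that lay farthest above the 3 comparators were led by keratins and other genes of stratified epithelium. Krtdap (keratinocyte differentiation associated protein, made by differentiating keratinocytes) read 10.19 in OKMS, against 6.18 in STEMCCA, 5.59 in EB-C5 and 6.14 in WTSI. It read 10.44 in OSKM, 10.69 in OK+9MS, 8.67 in MKOS and 10.95 in OKN-HAMS, 8.10 and 8.59 in Klf4S and Klf4L and 5.44 in lacZ. OKMS thus lay among the further cassettes, EB-C5 read under 6, and STEMCCA and WTSI read just above it. The difference from their mean was 4.22 (SD of the 3, 0.33), at least 18.6-fold because that mean, 5.97, is under 6.

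Krt8, a keratin of simple epithelium, had the most even comparators of the 15 leading higher genes. It read 11.61 in OKMS, against 9.18, 9.35 and 9.24 in STEMCCA, EB-C5 and WTSI, a difference of 2.35 (5.11-fold; SD of the 3, 0.08). The further cassettes lay above OKMS, at 12.88 (MKOS) to 13.43 (OK+9MS), and the Klf4 arrays between OKMS and the comparators at 10.97 and 11.23. Its adjusted p in the fit on 4 arrays (limma) was 0.642, a value that other genes shared.

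The sequences around the starts of Krtdap and Krt8 are shown because Krtdap had the largest gap to the nearest comparator of all named genes and Krt8 the smallest SD of the comparators among the 15 leading higher genes. Each sequence is 300 bases from RefSeq (GRCm38.p6), from 250 before the annotated start to 50 after it, in lower case with motif matches in capitals. Krtdap lies at chr7:30787655-30787954 on the plus strand and Krt8 at chr15:102004293-102004592 on the minus strand. The motifs searched on both strands were GGGCGG (GC box), GGGNGTG (a Klf motif), ATGCAAAT (octamer) and TGANTCA (AP-1), and TATAAA was searched on the gene's strand.
Krtdap: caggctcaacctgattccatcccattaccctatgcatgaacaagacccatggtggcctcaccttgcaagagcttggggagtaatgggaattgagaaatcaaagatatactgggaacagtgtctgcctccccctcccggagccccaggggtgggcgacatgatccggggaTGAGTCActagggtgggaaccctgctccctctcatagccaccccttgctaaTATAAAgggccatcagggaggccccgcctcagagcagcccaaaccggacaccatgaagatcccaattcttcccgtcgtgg
Krt8: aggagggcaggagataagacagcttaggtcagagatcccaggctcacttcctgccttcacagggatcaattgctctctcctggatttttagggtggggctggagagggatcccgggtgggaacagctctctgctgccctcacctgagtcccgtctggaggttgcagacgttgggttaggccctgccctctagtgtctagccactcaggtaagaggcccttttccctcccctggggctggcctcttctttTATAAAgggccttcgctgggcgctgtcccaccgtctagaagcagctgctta
The Krtdap window holds TGAGTCA from 81 bases and TATAAA from 30 bases before the start, and the Krt8 window holds TATAAA from 1 base before the annotated start. Of 32851 RefSeq promoter windows, 7.81% hold the AP-1 motif and 8.32% TATAAA; a match is a run of letters and not a shown binding site.

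Among 19 keratins, 5 were set apart and higher (26.3%, against 0.813% of all genes) and 0 lower, while the median difference of the list was 0.08 beside -0.01 over all genes (0.12 without EB-C5, 0.13 without WTSI). The list thus held a few large differences and many genes that hardly differed. At any size, OKMS lay above all 3 comparators for 9 of the 19 (22.4% of all genes) and below them for 4 (23.3% of all genes). Krt6b, a keratin of activated and stratified epidermis, read 11.37 in OKMS against 7.84, 5.96 and 6.07 in STEMCCA, EB-C5 and WTSI (difference 4.75; SD of the 3, 1.05). In the further cassettes Krt6b spanned 6.79 in MKOS to 12.28 in OKN-HAMS, so OKMS lay within them. Krt17, another keratin of activated epidermis, read 9.21 against 6.96 to 7.47 (difference 1.99; SD of the 3, 0.26), far under the 12.17 to 13.18 of the further cassettes. Krt13, of mucosal epithelium, read 8.85 against 7.16 to 7.99, and Krt19, of simple epithelium and named after its values were seen, read 9.86 against 7.88 to 9.34; both also lay under all further cassettes.

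The cornified envelope and barrier list holds the genes of the outermost layer of skin, and its median difference was 0.04 (0.01 without STEMCCA). Of its 42 members, 2 were set apart and higher (4.76%, against 0.813% of all genes). They were Krtdap and Tgm3, a transglutaminase that cross-links envelope proteins, which read 10.32 in OKMS against 7.08, 8.31 and 9.16 in STEMCCA, EB-C5 and WTSI. Tgm1, the other epidermal transglutaminase of the list, read 8.10 in OKMS against 7.40 to 7.76, and 10.68 to 11.62 in the further cassettes. Klk10, a serine protease of epithelium, read 7.89 against 7.38 to 7.59, and 11.53 to 12.35 in the further cassettes. For these 2 genes OKMS was near the comparators and far from the further cassettes, unlike Krtdap.

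Cell contact genes gave the broadest shift of the epithelial lists. Of 28 genes of epithelial adhesion and junctions, 7 were set apart and higher (25.0%, against 0.813% of all genes) and 0 lower. At any size, 20 of 28 lay above all 3 comparators (22.4% of all genes did) and 4 below (23.3% did). The median difference was 0.65, and 3 of 28 lay below all 10 other arrays. Cdh1, the cadherin of epithelial junctions, read 10.10 in OKMS against 9.63 in STEMCCA, 7.43 in EB-C5 and 7.65 in WTSI, so STEMCCA came close to OKMS (difference 1.86; SD of the 3, 1.21). Epcam, an epithelial adhesion molecule, read 9.26 against 8.17, 7.99 and 6.82. Cldn6, a tight junction claudin of early epithelia, was more even among the comparators, at 8.47 against 6.84, 6.48 and 6.54 (difference 1.85; SD of the 3, 0.19). Spint1, an inhibitor of epithelial serine proteases, read 10.52 against 9.90, 8.35 and 7.27. The other members set apart were Ocln, Lsr and St14, named after their values were seen, with differences of 1.23, 1.16 and 1.56.

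Of 20 epithelial regulators, 4 were set apart and higher (20%, against 0.813% of all genes) and 0 lower, with a median difference of 0.37. Esrp1, an RNA-binding protein that directs epithelial splicing, read 9.37 in OKMS against 7.51, 6.10 and 6.28 in STEMCCA, EB-C5 and WTSI (difference 2.75; SD of the 3, 0.77). Its relative Esrp2 read 8.95 against 7.34, 7.80 and 8.21. Ehf, an ETS factor of epithelia, read 9.17 against 7.10, 6.95 and 7.83, and Ap1m2, the epithelial form of a clathrin adaptor subunit, read 7.5 against 6.03 to 6.69. The rule requires OKMS to lie above all 3 comparators in such genes, and the gap was as small as 0.74 for Esrp2.

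The 4 epithelial lists together held 109 genes, of which 18 were set apart and higher (16.5%, against 0.813% of all genes) and 0 lower. Against the further cassettes, 0 of these 18 lay above all 4, 7 lay within their range and 11 below all 4. The same held for most of the other leading genes with epithelial expression. Ly6g6c, a surface protein of the Ly6 family, read 10.26 in OKMS, 7.01 to 7.80 in the comparators and 12.54 to 13.49 in the further cassettes. Sfn, the epithelial 14-3-3 protein, read 10.05 against 7.53 to 7.97, with 10.92 to 12.28 in the further cassettes. Plet1, a surface protein of trophoblast and epithelial progenitors, read 10.64 against 7.61 to 8.98, with 10.76 to 11.27 in the further cassettes. In all 3 genes the order was comparators, OKMS, further cassettes, with no overlap. Klf4S and Klf4L lay above OKMS for Ly6g6c (10.73 and 11.11) and Sfn (10.91 and 11.10), but not for Plet1 (7.99 and 7.74). The lacZ array read 6.85 for Ly6g6c, 9.27 for Sfn and 6.95 for Plet1, so for Sfn it lay above the comparators.

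Among other leading genes outside these lists, Dkkl1 and Cyp4f39 followed the same order. Dkkl1, a secreted relative of the Dickkopf proteins, read 8.61 in OKMS, 6.41 to 6.65 in the comparators and 11.62 to 12.35 in the further cassettes. Cyp4f39, a fatty acid hydroxylase of the skin barrier, read 11.35 against 6.76, 8.37 and 8.78, with 11.59 to 12.47 in the further cassettes. Cyp2s1, a cytochrome P450 of epithelia, read 10.09 against 7.16 to 7.44 and lay within the further cassettes, as did Atp2a3, a calcium pump of the endoplasmic reticulum (10.62 against 6.41 to 7.18), Smagp, a small transmembrane protein of epithelial cells (9.60 against 7.42 to 7.70), and Cyria, a Rac1-binding protein (10.91 against 8.06 to 8.97).

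**Figure D2:**
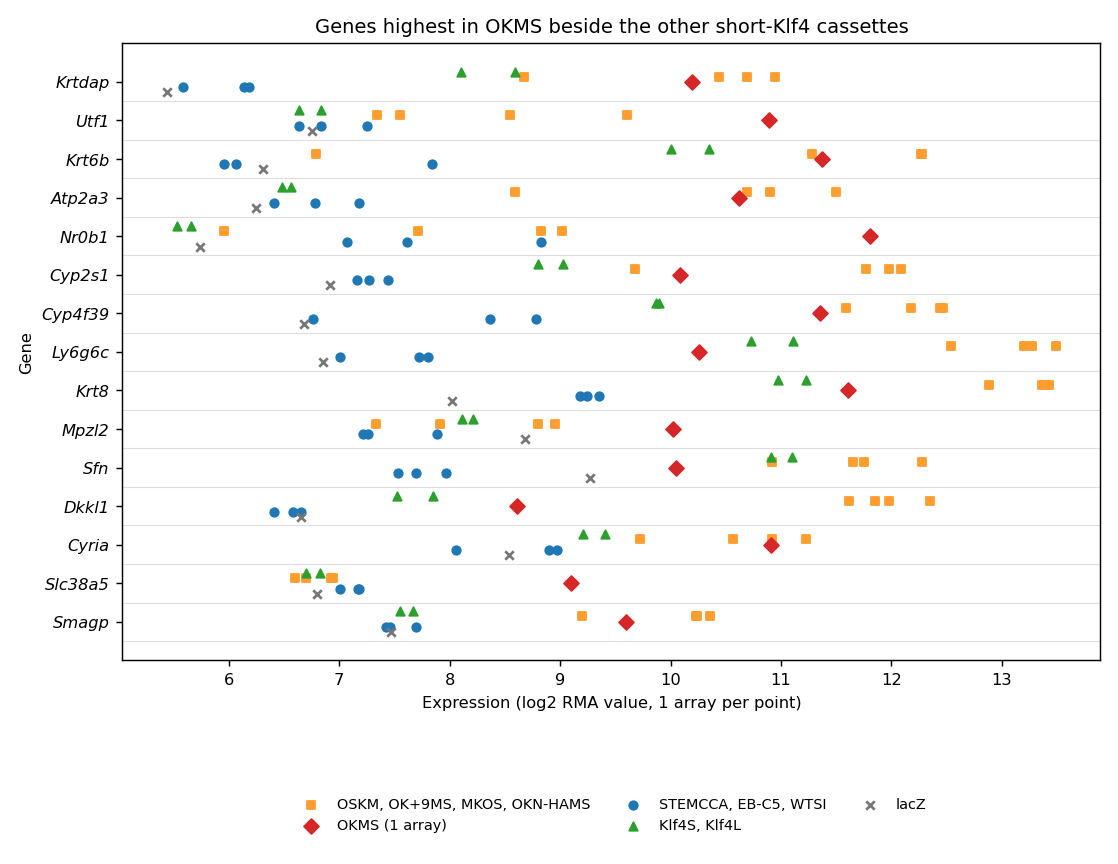
Expression (x axis, log2 RMA value) of the 15 genes set apart and higher in OKMS with the largest gap to the nearest comparator (y axis), 1 point per array. The red diamond (OKMS) lies right of all 3 blue points in every row, as the rule requires. It lies right of the orange squares, the 4 further cassettes, for Utf1, Nr0b1, Mpzl2 and Slc38a5, and among or left of them in the other rows.

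Some genes of the pluripotent state were also set apart, as counted below. By another measure, 9 of 23 late pluripotency genes lay above all 10 other arrays at any size, against 10.5% of all genes. Of 18 early ones 3 did, which is nearer to that share. Utf1, a chromatin-associated factor of pluripotent cells, read 10.89 in OKMS, against 7.25 in STEMCCA, 6.64 in EB-C5 and 6.84 in WTSI. It read 7.55 in OSKM, 9.61 in OK+9MS, 7.34 in MKOS and 8.55 in OKN-HAMS, and 6.64 to 6.84 on the Klf4 and lacZ arrays. The difference from the comparators was 3.98 (15.8-fold; SD of the 3, 0.31), and OK+9MS, the same cassette with the extended Klf4, came nearest to OKMS. Nr0b1 (Dax1), a nuclear receptor that binds Oct4 in embryonic stem cells, read 11.81 in OKMS, 7.61 in STEMCCA, 8.83 in EB-C5 and 7.07 in WTSI. It read 7.71 in OSKM, 8.83 in OK+9MS, 5.96 in MKOS, 9.02 in OKN-HAMS and 5.53 to 5.74 on the Klf4 and lacZ arrays. OKMS lay 3.97 above the mean of the comparators (15.7-fold; SD of the 3, 0.90), and the comparators overlapped the further cassettes.

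The starts of Utf1 and Nr0b1 are shown because these were the only late pluripotency genes among the 15 leading genes. Utf1 lies at chr7:139943606-139943905 and Nr0b1 at chrX:86191525-86191824 (GRCm38.p6, RefSeq), both on the plus strand and printed as above.
Utf1: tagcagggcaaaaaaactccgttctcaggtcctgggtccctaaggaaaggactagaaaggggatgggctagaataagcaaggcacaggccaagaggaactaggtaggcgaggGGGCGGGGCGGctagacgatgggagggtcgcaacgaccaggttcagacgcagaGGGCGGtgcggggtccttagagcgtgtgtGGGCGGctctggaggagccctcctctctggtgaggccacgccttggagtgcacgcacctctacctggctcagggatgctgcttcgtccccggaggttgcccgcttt
Nr0b1: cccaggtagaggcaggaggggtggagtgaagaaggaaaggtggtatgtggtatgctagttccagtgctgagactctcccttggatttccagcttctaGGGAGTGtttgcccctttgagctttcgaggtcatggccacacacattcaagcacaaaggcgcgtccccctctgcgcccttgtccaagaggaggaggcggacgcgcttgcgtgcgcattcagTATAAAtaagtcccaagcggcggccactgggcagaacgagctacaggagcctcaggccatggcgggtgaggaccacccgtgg
The Utf1 window holds GGGCGG 138, 133, 85 and 56 bases before the start, the first of these overlapping the next, and 35.7% of all windows hold that motif. The Nr0b1 window holds GGGAGTG, a match to the Klf motif, 153 bases before the start and TATAAA 32 bases before it; 29.2% of windows hold the Klf motif. The octamer was in 0 of the 4 printed windows and in 1.74% of all windows.

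Of 23 late pluripotency genes, 6 were set apart and higher (26.1%, against 0.813% of all genes) and 0 lower, and the median difference was 0.09. These 6 also lay above the 4 further cassettes. Nanog, a core factor of pluripotency, read 11.05 in OKMS against 10.60 in STEMCCA, 9.76 in EB-C5 and 7.33 in WTSI, and 7.92 (MKOS) to 9.93 (OSKM) in the further cassettes. The comparators spread widely (SD of the 3, 1.7), and STEMCCA lay within 0.45 of OKMS. Sall4, a zinc finger factor that works with Oct4, read 10.12 against 8.37, 9.02 and 7.37, and OK+9MS came to 10.10. Fgf4, a growth factor that Oct4 and Sox2 activate, read 8.99 against 6.85 to 7.61, and L1td1, an RNA-binding protein of pluripotent cells, read 9.60 against 8.12 to 8.93; both were named after their values were seen. The list's small median goes with members that stayed low: Zfp42 read 5.42, Dppa3 5.94 and Esrrb, an orphan receptor of naive pluripotency, 6.68 in OKMS.

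Among 18 early pluripotency genes, 3 were set apart and higher (16.7%, against 0.813% of all genes) and 1 lower (5.56%, against 0.311%). The median difference was 0.31 (0.19 without STEMCCA, 0.18 without WTSI). Alpl, the alkaline phosphatase used to stain reprogramming colonies, read 11.29 in OKMS against 9.98, 10.41 and 9.22 in STEMCCA, EB-C5 and WTSI, and 8.43 to 10.39 in the further cassettes. Cdh1 and Epcam, given above, were the other members that were higher, and the FGF receptor Fgfr2 was the member that was lower, at 7.74 against 8.62 to 9.06. Lin28a, an RNA-binding protein that blocks let-7 maturation, was named after its values were seen: it read 6.81 in OKMS, 6.96 in STEMCCA, 11.66 in EB-C5 and 6.74 in WTSI. Its difference of -1.64 comes from EB-C5, and OKMS lay within the comparators. The labels do not list all that EB-C5 encodes, and whether its Lin28a reading comes from the cell's own gene was not tested.

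Of 18 genes of FGF signalling and ERK feedback, 4 were set apart and higher (22.2%, against 0.813% of all genes) and 1 lower (5.56%, against 0.311%). The median difference was 0.23 (0.10 without EB-C5). The ETS factors Etv4 and Etv5, transcriptional targets of ERK, read 9.25 against 7.24 to 8.15 and 10.49 against 8.17 to 9.74. Spry4, a feedback inhibitor of the pathway, read 10.56 against 9.79, 8.80 and 9.13. These 3 lay above all further cassettes, whereas Dusp4, a phosphatase that acts on ERK, read 8.89 against 6.97 to 7.73 and lay among them. STEMCCA was the highest comparator for Etv4, Etv5 and Spry4, and a second probe set of Etv5 gave a difference of 2.06 beside 1.62. Fgfr2 was again the member that was lower.

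The transporters Slc38a5, Slc7a11, Slc2a3 and Slc16a3 were set apart and lay above all other cassettes in OKMS, as did Slc7a3, given below. Slc2a1, a glucose transporter, also lay above them, at 12.73 against at most 12.62, but was not set apart. Transporters were not a list, and Slc7a2, given below, was lower. Slc38a5, an amino acid transporter that carries glutamine, read 9.10 in OKMS, against 7.17, 7.18 and 7.01 in STEMCCA, EB-C5 and WTSI. The other 7 arrays lay between 6.60 and 6.94, so OKMS was the only array of the 11 above 7.18 (difference 1.98; SD of the 3, 0.10; limma adjusted p 0.0219 over all 11 arrays, 0.642 on the 4 arrays and 0.0918 over the 8 cassettes). Slc7a11, the cystine transporter, read 8.65 against 7.42 to 7.72, and Slc2a3, a glucose transporter, read 11.83 against 10.35 to 11.09. Slc16a3, a lactate exporter, read 11.08 against 10.65, 9.18 and 8.93. Of 18 glycolysis genes only these last 2 were set apart and higher (11.1%, against 0.813% of all genes), and 0 were lower. The median difference of that list was 0.15 (0.24 without STEMCCA, 0.10 without WTSI). Mpzl2, an adhesion protein of the immunoglobulin family, is no transporter and behaved alike: it read 10.02 in OKMS, 7.22 to 7.89 in the comparators and at most 8.95 in the further cassettes.

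The factors of the cassettes were not set apart at 2-fold. The signal of Pou5f1 was highest in OKMS of all arrays, at 13.22, against 11.89 in STEMCCA, 12.94 in EB-C5 and 12.88 in WTSI. Myc read 10.76 in OKMS, against 10.49, 9.86 and 10.77. Klf4 read 9.94 against 9.64, 9.90 and 10.20, and Sox2 read 6.58 against 6.22, 6.88 and 7.76, so OKMS lay within the comparators for these 3. The lacZ array read 6.09 for Pou5f1, 9.54 for Myc, 9.47 for Klf4 and 6.79 for Sox2. Sox2 read 6.24 in Klf4S and 6.33 in Klf4L. Sox2 was thus no higher in OKMS than in lacZ, and its reading cannot be taken as the level of the cassette's Sox2. Klf4 read 9.93 in Klf4S and 9.71 in Klf4L, near the 9.47 of lacZ although both constructs encode Klf4. The Klf4 reading therefore cannot be taken as the level of the cassette's Klf4 either. The arrays do not tell a transgene's transcript from that of the cell's own gene, and the part of these levels in the differences above was not tested.

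**Figure D3:**
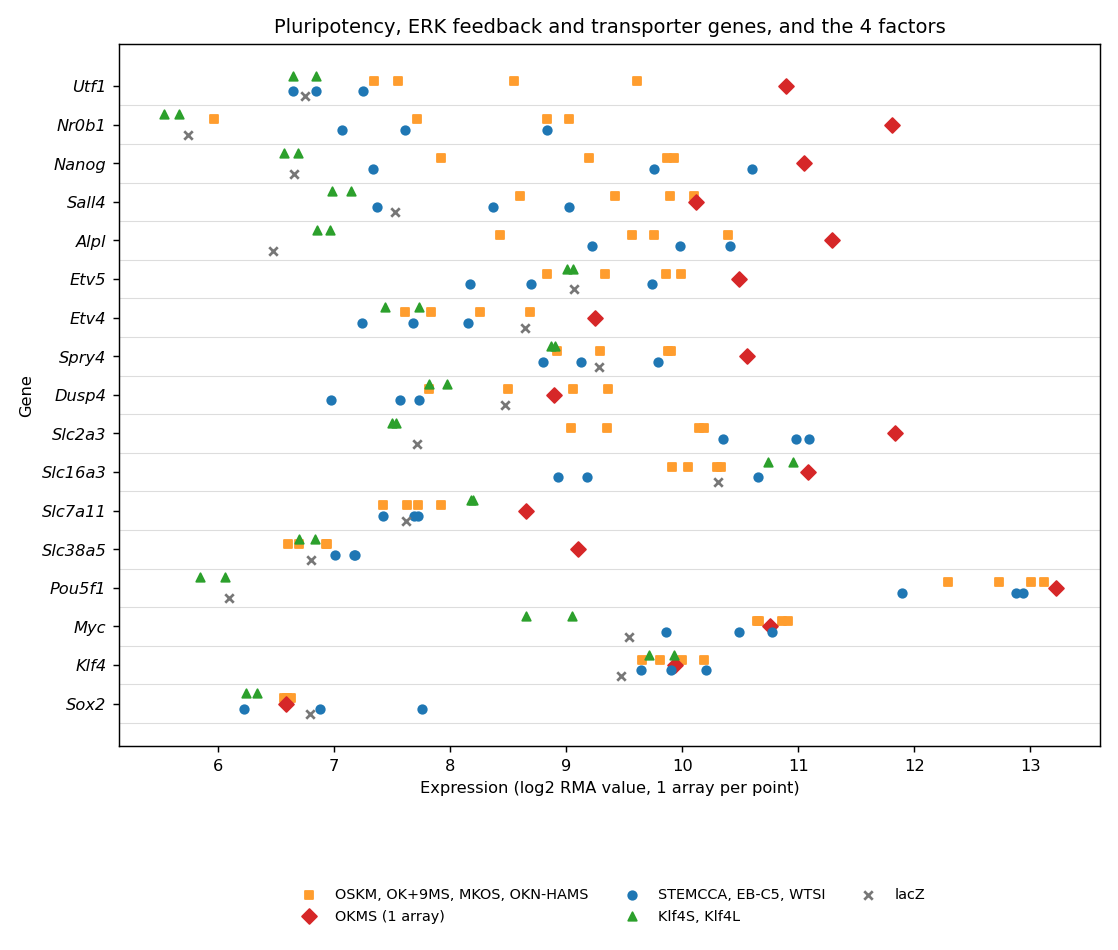
Expression (x axis, log2 RMA value) of pluripotency, ERK feedback and transporter genes and of the 4 factors (y axis), 1 point per array. The red diamond (OKMS) lies right of all other cassettes from Utf1 to Slc38a5 except for Dusp4, and for Myc, Klf4 and Sox2 it lies among them.

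OKMS did not lie in the same place beside the further cassettes for all higher genes. The genes were picked by the same OKMS value that is placed here, which by itself moves it to the outside. Their shares therefore cannot be read as an excess over those of all genes. Of all 162 higher genes, 79 lay above all 4 further cassettes (48.8%, against 25.6% of all genes), 53 within their range and 30 below them. The same 79 lay above all 10 other arrays. Of the 62 lower genes, 42 lay below all 4 further cassettes (67.7%, against 21.8% of all genes), 18 within and 2 above, and 32 lay below all 10 other arrays. OKMS and OK+9MS, which differ in the Klf4 form, differed 2-fold in 634 genes; of the genes above, Krt8 was 11.61 and 13.43 and Utf1 10.89 and 9.61 in these 2 arrays.

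**Figure D4:**
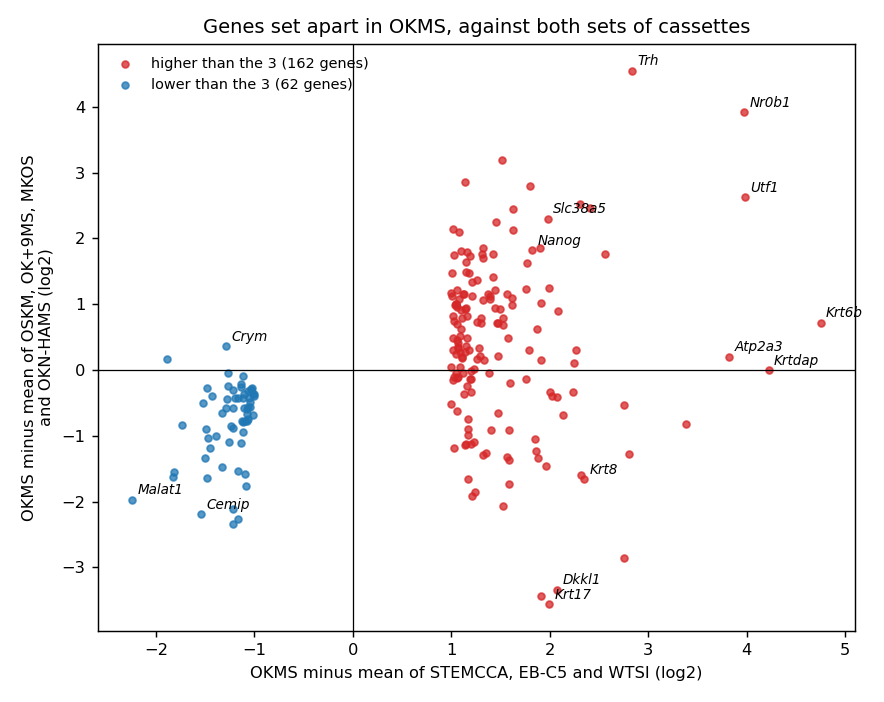
Difference of OKMS from the mean of the 4 further cassettes (y axis, log2) against its difference from the mean of STEMCCA, EB-C5 and WTSI (x axis, log2) for the 162 genes higher (red) and 62 genes lower (blue) than the 3. Utf1, Nr0b1, Trh and Slc38a5 lie high on both axes, Krt6b and Krtdap near 0 on the y axis, and Krt8, Krt17 and Dkkl1 well under it.

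On the low side, the gene with the largest difference was Malat1, a long nuclear RNA that is abundant in most cells. It read 9.23 in OKMS, against 11.23 in STEMCCA, 11.32 in EB-C5 and 11.86 in WTSI. It read 11.60 in OSKM, 10.20 in OK+9MS, 11.32 in MKOS, 11.69 in OKN-HAMS, 11.32 and 11.42 on the Klf4 arrays and 10.68 in lacZ. OKMS was the lowest of the 11 arrays and OK+9MS the second lowest; the difference from the comparators was -2.24 (SD of the 3, 0.35).

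Some genes of the fibroblast and its matrix were lower. Of 31 mesenchymal and fibroblast genes, 4 were set apart and lower (12.9%, against 0.311% of all genes) and 0 higher; 16 of 31 lay below all 3 comparators at any size, against 23.3% of all genes, and the median difference was -0.29. That median was -0.08 without STEMCCA and -0.44 without EB-C5, and the SD of the list's median over the 3 comparators was 0.375. The mean level of the list was 10.70 in OKMS, 11.51 in STEMCCA, 10.85 in EB-C5 and 10.84 in WTSI, so STEMCCA was the array that stood apart by this measure. Pdgfra, the receptor for platelet-derived growth factor on fibroblasts, read 7.88 in OKMS against 9.72, 9.68 and 8.72 in STEMCCA, EB-C5 and WTSI, and it was lowest in OKMS of all 11 arrays. The small proteoglycans Lum and Dcn, which bind collagen fibrils, read 7.58 against 8.38 to 9.46 and 10.07 against 10.87 to 11.53. The lacZ array, of day 2 and unsorted, read lower than OKMS for both, at 6.54 for Lum and 9.68 for Dcn. Fbn2, a microfibril protein, read 9.29 against 9.92 to 11.04, and 9.67 in lacZ. Abundant fibroblast genes were not set apart: Col1a1 read 12.02 against 12.19 to 12.87 and Vim, the mesenchymal intermediate filament, 13.55 against 13.61 to 13.65. Thy1, a fibroblast surface marker, lay within the comparators, at 11.36 in OKMS against 9.64 to 11.66.

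Further matrix and surface genes were among the 15 leading lower genes. Cemip, which takes part in breaking down hyaluronan, read 7.39 in OKMS, 8.80 to 9.13 in the comparators and 8.15 to 10.20 on the other 7 arrays, so OKMS was the lowest of all. Tgfbi, a matrix protein induced by TGF-beta, read 9.90 against 11.05 to 11.65, and Efemp1 (fibulin-3) read 10.11 against 11.13 to 11.69. Cd34, a surface sialomucin of progenitor and stromal cells, read 9.57 against 10.58 to 11.04. Of 19 matrix proteases and inhibitors, 2 were lower (10.5%, against 0.311% of all genes) and 0 higher. The collagenase Mmp13 read 7.75 against 9.24, 10.30 and 8.94, and the aggrecanase-family member Adamts1 read 8.98 against 9.42 to 10.68. As the rule requires, OKMS lay below all 3 comparators in each of these genes. The lacZ array read 7.40 for Mmp13, lower than OKMS, and 10.34 for Adamts1.

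Fos and Fosb were the immediate early genes set apart. Fos, a subunit of the AP-1 transcription factor, read 7.60 in OKMS, against 9.20 in STEMCCA, 8.79 in EB-C5 and 10.28 in WTSI (difference -1.82; SD of the 3, 0.77). Its relative Fosb read 7.94 against 9.17, 9.27 and 10.90 (difference -1.83; SD of the 3, 0.97). On the other 7 arrays Fos lay between 8.36 and 9.94 and Fosb between 8.66 and 10.67, so OKMS was the lowest of 11 for both, and WTSI was the highest. Of 15 AP-1 and immediate early genes, 2 were set apart and lower (13.3%, against 0.311% of all genes) and 0 higher. At any size, 9 lay below all 3 comparators (23.3% of all genes did) and 8 below all 10 other arrays (9.5% did). The median difference was -0.56 (-0.35 without WTSI). The comparators differed among themselves by about as much as OKMS did from their mean: the SD of the list's median over the 3 was 0.542.

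Other leading lower genes had varied roles. Pik3r3, a regulatory subunit of PI3 kinase, read 8.02 against 9.33 to 9.60 and was the lowest of all 11 arrays, as the others read 9.19 to 10.26. Efnb2, an ephrin ligand, read 8.09 against 9.20 to 9.40. Of 25 chemokine and cytokine genes, 2 were lower (8.0%, against 0.311% of all genes). Il1rn, the interleukin-1 receptor antagonist, read 9.87 against 10.75 to 11.50, and Lcn2, an iron-sequestering lipocalin, read 6.47 against 7.20 to 7.95. In Pik3r3, Efnb2, Il1rn and Lcn2, OKMS lay below the further cassettes too. Cp (ceruloplasmin), Serpina3n (a protease inhibitor), Eya4 (a transcriptional coactivator) and Slc7a2 (a cationic amino acid transporter) were as low in some further cassettes as in OKMS. Crym, a thyroid hormone binding protein, read 8.44 against 9.53 to 10.12 and was higher in OKMS than in the further cassettes, at 7.5 to 8.34.

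**Figure D5:**
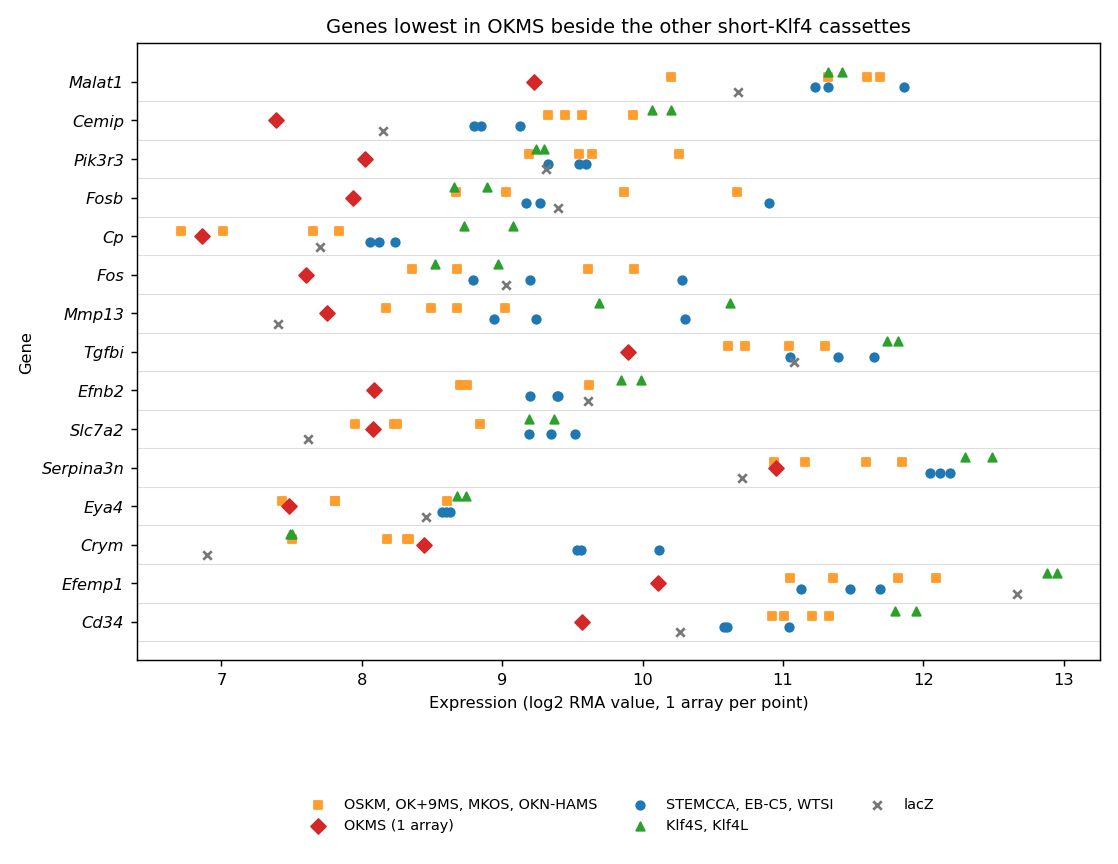
Expression (x axis, log2 RMA value) of the 15 genes set apart and lower in OKMS with the largest gap to the nearest comparator (y axis), 1 point per array. The red diamond (OKMS) lies left of all 3 blue points in every row, as the rule requires. For Malat1, Cemip, Pik3r3, Fosb and Fos, among others, it lies left of every other array, and for Crym right of the orange squares.

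In growth-related lists, many members lay a little above the comparators and few if any were set apart. Of 29 DNA replication genes, 0 were set apart, 15 lay above all 3 comparators (22.4% of all genes did) and 0 below, and 14 lay above all 10 other arrays (10.5% of all genes did); the median difference was 0.37 (0.62 without EB-C5). Gins1, a subunit of the replicative helicase, read 9.06 in OKMS against 8.14, 8.41 and 8.01, and the helicase loader Cdt1 read 10.75 against 9.98, 10.14 and 9.73. The mean level of the list was 10.16 in OKMS but 10.13 in EB-C5, beside 9.55 in STEMCCA and 9.56 in WTSI, so the high level was shared by EB-C5. Of 27 G2/M genes, 0 were set apart, 10 lay above all 3 and 0 below, with means of 10.32 in OKMS and 10.35 in EB-C5 and a median difference of 0.30 (0.18 without WTSI).

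MYC targets and ribosome biogenesis had 1 of 28 members set apart and higher (3.57%, against 0.813% of all genes) and 0 lower. At any size, 16 lay above all 3 comparators (22.4% of all genes did) and 0 below, with a median difference of 0.31 (0.14 without STEMCCA). Rrp9, which takes part in processing ribosomal RNA, was that member, at 11.43 against 9.93, 9.85 and 10.12 (difference 1.47; SD of the 3, 0.14), and OK+9MS read 11.29. Of 17 cell cycle inhibitors and p53 targets, 0 were set apart, 12 lay below all 3 comparators (23.3% of all genes did) and 0 above, with a median difference of -0.37. Btg2, an antiproliferative p53 target, read 10.05 against 10.91, 10.68 and 11.37, and Cdkn2c, an inhibitor of Cdk4 and Cdk6, read 7.72 against 8.83, 8.27 and 8.54.

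Hox genes, which hold the positional identity of fibroblasts, had 0 of 24 members set apart, 16 below all 3 comparators (23.3% of all genes were) and 0 above, with a median difference of -0.24 (-0.15 without WTSI). Hoxa5 read 7.94 in OKMS against 8.51, 8.56 and 9.00, and Hoxc6 read 8.36 against 9.07, 8.84 and 9.67. Interferon response genes had 0 of 28 set apart and 8 below all 3, near the background of 23.3%, and their mean level of 8.32 in OKMS lay between WTSI at 8.19 and EB-C5 at 8.33, with STEMCCA at 9.23. Regulators of the epithelial to mesenchymal transition, BMP and Id genes, Kruppel-like factors, oxidative phosphorylation, cholesterol synthesis and the muscle, cartilage and fat list also had 0 members set apart. The remaining lists each had at most 1 member set apart in each direction.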

How the data were processed

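Total RNA from each cell population was hybridised to a single Affymetrix mouse array. The authors deposited log2 values from RMA, which corrects background, normalizes arrays to each other and summarizes probes, per the submitters' processing notes. Its version is not given in the sources. Values ran from 4.34 to 14.16, with array medians of 7.188 to 7.269, and were used as deposited. The number of arrays limits the precision.

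Of 28856 probe sets, 21789 had 1 gene symbol, 1621 several and 5446 none in the platform annotation; 21698 of the first matched a current RefSeq gene entry, with 0 symbols changed. Only those with 1 symbol were used. Where a gene had several probe sets (999 genes), the brightest by mean was used, for 19938 genes in all, dim ones included. A level of 6, chosen for this work, marks readings that cannot be told from background; where the lower side is under it, the difference is a lower bound in size.

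Genes were described by size and range as stated in the report, and fitted with limma 3.58.1 (lmFit and eBayes, R 4.3.3; Benjamini-Hochberg adjusted p under 0.05). The fit was checked on simulated data. Other steps used Python 3.11.15, pandas 2.3.3 and numpy 2.4.6, and matplotlib 3.10.9 drew the figures. The genes named were the 15 higher and 15 lower genes set apart with the largest gap to the nearest comparator and a level of at least 7 on the higher side, up to 4 members of each list, the 4 factors and up to 10 genes in each direction called by limma. Predicted genes, small RNAs and chemosensory receptors are counted only, and exceptions are marked. The comparison and the 30 gene lists (671 entries, 638 measured, 5 through older symbols) were chosen with earlier results of these data known. Promoter sequences came from RefSeq (GRCm38.p6), which held 166 of the 224 genes set apart. The alternatives tried concerned normalization, probe set choice, dim genes, thresholds, the samples fitted and leaving out each comparator.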

Additional observations from a re-analysis of the deposited data

Results flagged for a closer look

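For each named gene, the highest and the lowest of the 8 cassettes were set against the nearest of the others, as a share of the whole range of the 8. By this rule 11 of 137 genes had a cassette far from the rest. Chance flags about 1 in 20 groups of unselected values, but most of these genes were named for the size of their OKMS difference, so neither the number of genes nor the share of them in which OKMS is the far one (7) can be read against that rate. OKMS was the high one for Slc38a5 (9.10, next 7.18), for Slc7a11 (8.65, next 7.92) and for Shmt2, a mitochondrial enzyme of serine and glycine metabolism (11.84, next 11.41). It was also the high one for Mvk, an enzyme of cholesterol synthesis (9.39, next 9.09), and for Emcn, an endothelial sialomucin near the low end of the array (6.38, next 5.92). OKMS was the low one for Cemip (7.39, next 8.80) and Cd34 (9.57, next 10.58).

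In the other 4 genes a comparator stood far from the rest. Myc was low in EB-C5 (9.86, next 10.49), Uchl1, a neuronal deubiquitinase, was low in STEMCCA (9.65, next 11.15), and Sox2 (7.76, next 6.88) and Id3, an inhibitor of basic helix-loop-helix factors (10.33, next 8.84), were high in WTSI. Each of these comparators moves the mean against which OKMS was set for that gene.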

How the results depend on the processing

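The count of 224 genes set apart lay between 173 and 233 with arrays centred or quantile normalized again, other probe set rules, filters on dim genes, the median of the 3 or no range rule. At 1.5-fold it was 964 (546 higher, 418 lower), and with OKMS outside the range by at least 1 on the log2 scale it was 87 (71 higher, 16 lower); the same stricter rule gave 124 for STEMCCA, 23 for EB-C5 and 28 for WTSI. Leaving out 1 comparator at a time gave 258 to 300 genes, with 152 to 199 higher and 83 to 106 lower. limma called 4 genes with all 11 arrays and 11 (0.0552%) with all 11 arrays and an intensity trend, the latter chosen after seeing the data, and 0 in the other alternatives run. Of 959 alternative values for the differences of 137 named genes, 953 kept their sign, 1 moved by more than the spread between the comparators and 0 reversed a called value. Many list medians moved when 1 comparator was left out: for lists whose median the report prints, moves of 1.5 times or more are given there, and without STEMCCA the medians of 2 lists changed sign, from -0.15 to 0.06 for regulators of the epithelial to mesenchymal transition and from -0.20 to 0.03 for interferon genes. Without EB-C5 that of smooth muscle and TGF-beta targets went from 0.10 to -0.13 and that of oxidative phosphorylation from -0.06 to 0.03; without WTSI the latter was 0.02. The ranges were 0.18 to 0.27 for early pluripotency, 0.29 to 0.41 for epithelial regulators, 0.08 to 0.13 for keratins, 0.02 to 0.16 for Kruppel-like factors, -0.43 to -0.25 for cell cycle inhibitors and p53 targets, -0.09 to 0.07 for the unfolded protein list and -0.02 to 0.0 for the blood and endothelial list. With the median of the 3, keratins were at 0.04, p53 targets at -0.24, the blood and endothelial list at 0.01 and the trophoblast list at 0.01; centring gave -0.04 and 0.01 for the last 2, and quantile normalization -0.01 for the blood and endothelial list. The causes were not tested. No paired analysis was possible because each construct was measured once. Readings near background limit what dim genes can show, and 11 of the 162 higher genes have their lower side under 6.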

Other observations

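Several higher genes outside the lists are also known from embryonic stem cells; they were named after their values were seen. Trh, which encodes thyrotropin-releasing hormone, had the largest difference from the further cassettes of all 162 higher genes: it read 11.11 in OKMS, 9.99 in STEMCCA, 7.61 in EB-C5 and 7.23 in WTSI, against 6.39 to 6.82 in the further cassettes. Nr5a2, an orphan receptor that can activate Pou5f1, read 8.26 in OKMS, 7.05 in STEMCCA, 6.00 in EB-C5 and 6.04 in WTSI, against 6.23 to 6.60. Slc7a3, a cationic amino acid transporter, read 12.40 in OKMS, 11.22 in STEMCCA, 10.58 in EB-C5 and 9.41 in WTSI, against 9.90 to 11.81. For all 3 genes STEMCCA was the nearest comparator. Fut9, the enzyme that makes the SSEA-1 sugar, read 9.23 in OKMS and 9.01 in EB-C5, 7.70 in STEMCCA, 7.57 in WTSI and 5.84 to 6.61 in the further cassettes. Zfp296, a zinc finger protein of embryonic stem cells, read 8.67 to 8.93 in the comparators and lay 1.20 above their mean in OKMS, within the 9.64 to 10.72 of the further cassettes.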
